A study of Mus musculus with 6 samples.

Results

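The B cell and early lymphoid genes described here were 39 of the 55421 genes in the count table, taken by their symbols for their known roles in B lymphocytes and in the precursors of these cells. The rule used gene names and no measured value. They were compared in leukemia cells of mouse bone marrow between the genotypes AE9a-Ddit4-/- and AE9a-Ddit4+/+, with 3 RNA-seq libraries of each, to describe how this part of the transcriptome differs when Ddit4, a stress-induced inhibitor of mTOR signaling, is deleted. Cells of both groups came from C57BL/6 mice and carried AE9a (AML1-ETO9a), a truncated splice form of the leukemia fusion AML1-ETO that by itself causes acute myeloid leukemia in mice. A retrovirus had brought AE9a into c-Kit+ stem and progenitor cells of Ddit4+/+ or Ddit4-/- donors, and infected GFP+ cells were transplanted into irradiated recipients. The methods give donors and purchased mice of 6 to 8 weeks of age and name female C57BL/6 recipients for the AE9a model and the limiting dilution, while the sex of the donors, and of the recipients behind these libraries, is not given. Such recipients keep some blood cells of their own, and a sort on GFP is not stated for these libraries. The labels also give culture medium with serum for the leukemia cells. The cells are described as taken from transplanted mice with n = 3 in each group, which reads as a mouse per library. Separate primary leukemias are not stated. In the primary transplants that the paper describes, fewer AE9a-Ddit4-/- recipients developed leukemia than there are libraries of that genotype here. If these libraries trace back to those recipients, some of the 3 share a primary leukemia. The tests treat the 3 as independent, so that p-values may measure the spread between recipients only.

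Levels are given as counts per 1e+06 counts of the library (CPM), and library totals ran from 62141558 to 72717681 counts. A gene was taken as not detectable in a library at 12 counts or fewer, which is 0.163 to 0.198 CPM, and this limit covers counting error only. Ddit4 itself was at 161 to 342 CPM in AE9a-Ddit4+/+ and at 77.7 to 85.9 CPM in AE9a-Ddit4-/- libraries, a log2 change, knockout over wild type, of -1.56 (edgeR adjusted p = 0.00635). Xist was at 566 to 1032 CPM in AE9a-Ddit4+/+ and at 63.2, 20.3 and 129 CPM in AE9a-Ddit4-/- libraries 1, 2 and 3. Ddx3y on the Y chromosome was at most 0.0774 CPM in the former and 88.2 to 125 CPM in the latter, so that genotype and the sex of the cells cannot be told apart. Each AE9a-Ddit4-/- library thus held both Xist and Ddx3y, and the source of this Xist was not tested. Mitochondrial genes took 5.03% to 7.91% of the counts in AE9a-Ddit4+/+ and 11.3% to 16.4% in AE9a-Ddit4-/- libraries, and their part in the results was not tested.

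B lymphocytes arise in the bone marrow from lymphoid progenitors. The factors TCF3, EBF1 and PAX5 set up the program in turn, while the RAG enzymes join the immunoglobulin gene segments and a heavy chain is first tried out with the surrogate light chains VPREB and IGLL1 as the pre-B cell receptor. A mature B cell then carries IgM and IgD on its surface, coupled to the signaling chains CD79A and CD79B, and can go on to secrete antibody. Several of these genes, among them Ikzf1, Tcf3, Syk, Btk, Cd24a and Cd93, are also used by myeloid cells and progenitors.

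RefSeq promoters (GRCm38.p6, from 250 bases before to 50 after the start) were found for 29 of the 39 genes, 36 windows in all, and were searched on both strands for 4 motifs. The EBF1 motif, TCCC and GGGA with any 2 bases between them, was present in 1 of the 36 windows and in 0.905% of all 32817 promoters of that length. The octamer ATGCAAAT, bound by OCT factors such as OCT2, was present in 2 windows and in 1.737% of all promoters. The RUNX motif TGTGGT, of the kind that the AML1 part of AE9a binds, was present in 6 windows (16.67%) and in 16.76% of all promoters. The E-box CAGGTG of TCF3 was present in 15 windows (41.67%) and in 20.22% of all promoters. A match is a description of the letters, and its use in these cells was not measured. The 4 windows printed next, the 250 bases before the start read 5′ to 3′ on the strand of the gene, belong to 4 genes that rose in AE9a-Ddit4-/- libraries and show the 4 motifs in capitals, with no match overlapping another.
Cd79a, chr7:24897247-24897496, plus strand, E-box: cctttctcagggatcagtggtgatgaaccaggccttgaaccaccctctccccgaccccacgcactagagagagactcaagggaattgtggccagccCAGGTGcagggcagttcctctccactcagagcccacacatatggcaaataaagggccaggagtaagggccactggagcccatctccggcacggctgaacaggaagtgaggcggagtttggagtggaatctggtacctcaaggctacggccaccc
Cd22, chr7:30879029-30879278, minus strand, E-box and EBF1 motif: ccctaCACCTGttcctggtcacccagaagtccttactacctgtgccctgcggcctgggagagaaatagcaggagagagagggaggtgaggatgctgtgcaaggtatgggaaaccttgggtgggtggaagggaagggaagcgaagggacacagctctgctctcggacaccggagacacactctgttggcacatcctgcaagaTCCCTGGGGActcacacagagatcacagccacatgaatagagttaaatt
Blnk, chr19:40994222-40994471, minus strand, E-box and octamer: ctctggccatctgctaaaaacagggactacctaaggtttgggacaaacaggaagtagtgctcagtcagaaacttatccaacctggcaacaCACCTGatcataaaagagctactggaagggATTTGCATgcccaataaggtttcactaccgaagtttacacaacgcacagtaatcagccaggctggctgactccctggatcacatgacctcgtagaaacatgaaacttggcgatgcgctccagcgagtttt
Ebf1, chr11:44617850-44618099, plus strand, RUNX motif: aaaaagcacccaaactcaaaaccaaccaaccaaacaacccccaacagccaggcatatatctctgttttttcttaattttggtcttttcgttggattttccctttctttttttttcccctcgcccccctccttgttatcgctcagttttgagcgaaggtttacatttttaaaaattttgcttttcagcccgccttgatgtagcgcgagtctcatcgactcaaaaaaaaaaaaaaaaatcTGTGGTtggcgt

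Genes such as Cd79a, Cd79b, Pax5, Cd22 and Ms4a1 were low or not detectable in AE9a-Ddit4+/+ libraries and rose in AE9a-Ddit4-/- libraries, whereas Cd24a, Ikzf1 and Bcl11a fell. Of the 39 genes, 31 had enough counts to be tested, and 8 did not. Among those tested, 19 were higher and 3 were lower in AE9a-Ddit4-/- (edgeR, adjusted p below 0.05), and 9 did not pass the threshold. Over all 18375 genes tested, 19.4% were higher and 10.7% were lower. The 3 AE9a-Ddit4-/- libraries all lay above the 3 AE9a-Ddit4+/+ libraries for 22 of the 31 members tested, beside 27.9% of all genes tested. They all lay below for 4 of these members, beside 22.2% of all genes tested. The median log2 change was 2.93 over the members tested, also with undetectable genes at their bound, and 0.04 over all genes tested. A member that is off in AE9a-Ddit4+/+ enters the test through its level in AE9a-Ddit4-/-. In all 3 AE9a-Ddit4+/+ libraries 11 of the 39 were at or under the limit of detection, and of these only Vpreb1, Ighd and Ms4a1 were tested. Other tested members, such as Pax5 and Blk, were near that limit. These counts and the median therefore describe the genes and support no comparison. In bulk RNA, a change in the number of cells of a type and a change in the RNA per cell cannot be told apart.

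**Figure D1:**
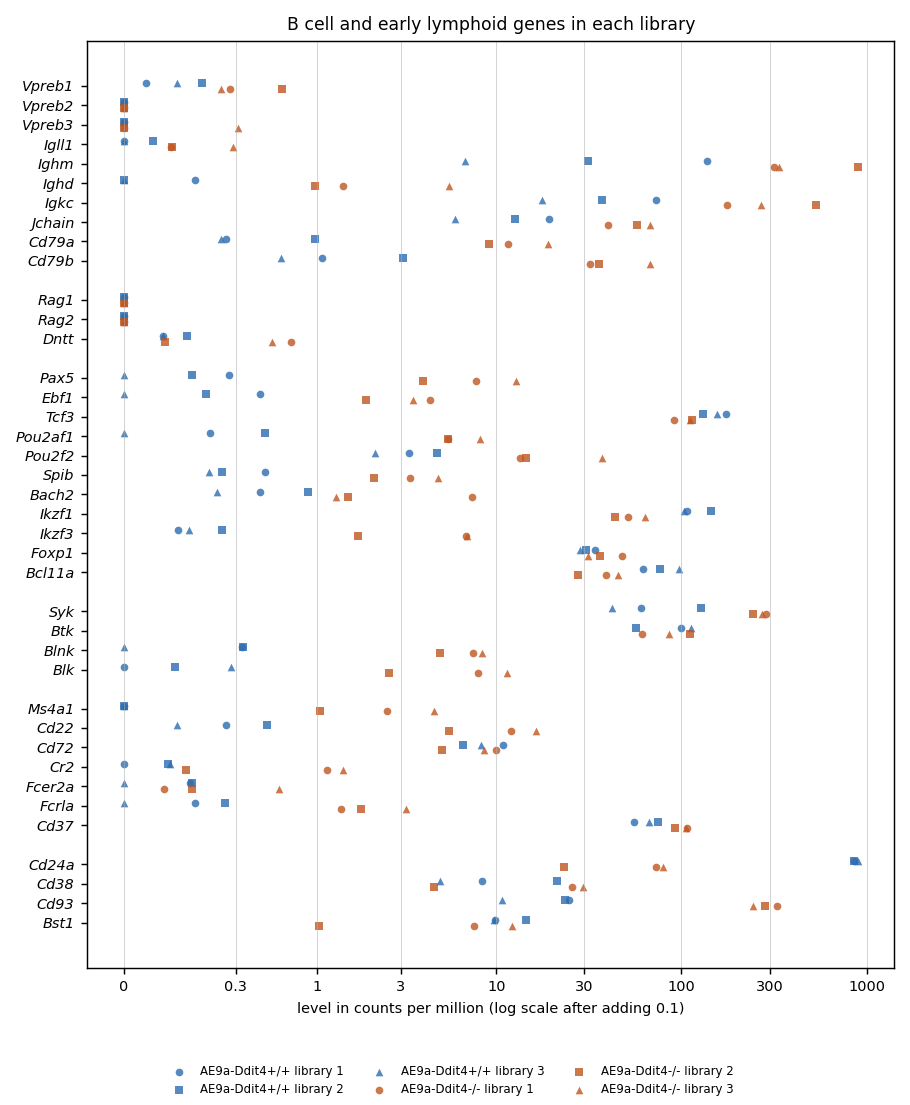
Level of each of the 39 genes in CPM (x axis, log scale after adding 0.1 CPM) in the 6 libraries, with 1 point per library, color for genotype and shape for library number, in blocks by role. The AE9a-Ddit4-/- points lie to the right of the AE9a-Ddit4+/+ points for most B cell genes, and far to the left for Cd24a.

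Components of the B cell receptor rose in AE9a-Ddit4-/- libraries. Of 10 genes for immunoglobulin, surrogate and receptor chains, 7 were tested, and 5 were higher and 0 lower. Cd79a (chr7:24897381-24902197, plus strand), which encodes a signaling chain of the receptor, was at 0.253, 0.972 and 0.232 CPM in AE9a-Ddit4+/+ and at 11.6, 9.14 and 19.0 CPM in AE9a-Ddit4-/- (libraries 1, 2 and 3 of each group, an order kept throughout). The lowest knockout library was above the highest wild-type library, with a mean of 13.2 ± 5.15 CPM against 0.486 ± 0.421 CPM (SD over 3 libraries of each group). The log2 change was 4.76 (SE 0.709, edgeR adjusted p = 0.00309). Cd79b (chr11:106311341-106314762, minus strand), the partner of Cd79a in the receptor, was at 1.06, 3.06 and 0.603 CPM against 32.2, 35.8 and 67.7 CPM. These groups did not overlap either, with a log2 change of 4.84 (SE 0.684, adjusted p = 0.00258). The ratio of Cd79b to Cd79a in CPM stayed between 2.60 and 4.19 in all 6 libraries. In AE9a-Ddit4+/+ libraries 1 and 3 this ratio rests on 16 and 15 counts of Cd79a, near the limit of 12, and is imprecise. Per kb of exon, the AE9a-Ddit4-/- mean levels were 9.09 CPM for Cd79a and 31.6 CPM for Cd79b.

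Igkc (chr6:70726435-70726966, plus strand), the constant region of the kappa light chain, was at 73.3, 37.3 and 17.7 CPM in AE9a-Ddit4+/+ and at 175, 530 and 270 CPM in AE9a-Ddit4-/- libraries. It was the only called member with its highest level in AE9a-Ddit4-/- library 2, and it was well above the limit in each AE9a-Ddit4+/+ library. Its log2 change was 2.93 (SE 0.604, adjusted p = 0.0104). Jchain (chr5:88519809-88527891, minus strand), which links IgM and IgA into polymers and is also made by plasmacytoid dendritic cells, was at 19.3, 12.7 and 5.94 CPM against 40.3, 57.5 and 68.2 CPM. Again no value of AE9a-Ddit4+/+ reached those of AE9a-Ddit4-/-, and the log2 change was 2.13 (SE 0.439, adjusted p = 0.0103).

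Ighm (chr12:113418558-113422730, minus strand), the constant region of the IgM heavy chain, was at 137, 31.5 and 6.76 CPM in AE9a-Ddit4+/+ libraries and at 315, 890 and 336 CPM in AE9a-Ddit4-/- libraries. The groups did not overlap, but AE9a-Ddit4+/+ values spread widely, and the log2 change of 3.13 (SE 1.01) did not pass the threshold (edgeR adjusted p = 0.0518). Without AE9a-Ddit4+/+ library 1, the highest of its group, the log2 change was 4.74 (adjusted p = 0.0156), and over 13 alternatives the adjusted p ran from 0.00114 to 0.130. Ighd (chr12:113406604-113416324, minus strand), the heavy chain of IgD on mature naive B cells, was at 0.142 CPM in AE9a-Ddit4+/+ library 1 and at 0 in libraries 2 and 3, all under the limit. In AE9a-Ddit4-/- libraries it was at 1.41, 0.971 and 5.49 CPM, highest in library 3, which is at least 14.3-fold higher than the limit (adjusted p = 0.0217). This call was lost when library 3 of either group was left out (adjusted p = 0.0569 for AE9a-Ddit4+/+ and 0.0722 for AE9a-Ddit4-/-), within a range of 6.86e-05 to 0.0722 over 12 alternatives.

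Transcripts of the surrogate light chains, of Vpreb3 and of the recombination enzymes were low or not detectable in all libraries, with at most 43 counts for any of them in a library. Counts over the limit of 12 were seen in AE9a-Ddit4-/- libraries only. Rag1 and Rag2, which cut the immunoglobulin loci, and Vpreb2 were at 0 counts in all 6 libraries, where a count of 0 allows up to the same 12 counts. Exons of Rag1 and Rag2 overlap those of B230118H07Rik, which had up to 993 counts and lies on the same strand as Rag1. Reads in the overlap may have been dropped or counted for that gene, so the 0 counts may miss Rag transcripts. Vpreb1, a surrogate light chain, had 2, 11 and 6 counts in AE9a-Ddit4+/+ and 17, 37 and 17 counts in AE9a-Ddit4-/- libraries. The AE9a-Ddit4-/- mean was at least 2.02 times the AE9a-Ddit4+/+ level, taken at the limit, and the gene did not pass the threshold (adjusted p = 0.113). Its exons overlap those of Top3b on the other strand, which had up to 6337 counts. Igll1, the second surrogate chain, had at most 21 counts, and Vpreb3, a protein of similar structure, had 23 counts in AE9a-Ddit4-/- library 3 and 0 in the others. Dntt, which adds nucleotides at the joints, had 43, 4 and 39 counts in AE9a-Ddit4-/- libraries and at most 8 in AE9a-Ddit4+/+ libraries. Transcripts of Vpreb1 and Vpreb2 were identical at 739 of 766 aligned bases (96.48%), so that reads of these genes may have been divided or dropped between them.

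The variable segments, which lie outside the 39 genes, show over how many genes the immunoglobulin counts were spread. Of 185 Ighv genes, 41, 37 and 17 were over the limit in AE9a-Ddit4+/+ libraries 1, 2 and 3, and 68, 81 and 79 in AE9a-Ddit4-/- libraries. Their summed level was 46.3, 25.1 and 11.7 CPM against 135, 374 and 182 CPM, and the most abundant gene took 8.82% to 18.1% of the sum in any library. No segment dominated in either group, and the most abundant gene differed from library to library. Of the 71 Ighv genes tested, 38 were higher and 0 were lower, beside 19.4% higher and 10.7% lower over all genes tested. The 160 Igkv genes summed to 59.5, 30.4 and 16.7 CPM against 133, 419 and 201 CPM, with 22 of 67 tested higher and 0 lower. Segments not detectable in AE9a-Ddit4+/+ enter the test through AE9a-Ddit4-/-, so the calls in both families describe the genes and support no comparison. Near-identical copies within both families make the values of single segments uncertain. The lambda constant genes (Iglc) summed to 1.25 to 2.68 CPM in AE9a-Ddit4+/+ and 11.02 to 34.4 CPM in AE9a-Ddit4-/- libraries.

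Heavy chains of switched antibody classes, read here as context for Ighm and Ighd, were also higher. The Ighg genes of IgG summed to 21.2, 25.1 and 11.4 CPM in AE9a-Ddit4+/+ and 191, 528 and 359 CPM in AE9a-Ddit4-/- libraries, with Ighg1, Ighg2b and Ighg2c higher and Ighg3 not past the threshold (adjusted p = 0.178). Igha of IgA was at 63.0, 69.5 and 32.6 CPM against 189, 365 and 241 CPM, a log2 change of 2.27 (SE 0.366, adjusted p = 0.00416). Ighm took 61.9%, 25.01% and 13.3% of the heavy chain constant counts in AE9a-Ddit4+/+ and 45.3%, 49.9% and 35.7% in AE9a-Ddit4-/- libraries. Igha took 28.4%, 55.1% and 64.2% against 27.1%, 20.5% and 25.6%. These shares overlapped for Ighm and came close to overlap for Igha, where AE9a-Ddit4+/+ library 1 lay next to the AE9a-Ddit4-/- libraries.

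Of 11 transcription factors, all tested, 6 were higher, 2 were lower and 3 did not pass the threshold. Pax5 (chr4:44524757-44710487, minus strand), the factor that commits cells to the B lineage, was at 0.269, 0.133 and 0 CPM in AE9a-Ddit4+/+ and at 7.74, 3.97 and 12.7 CPM in AE9a-Ddit4-/- libraries. It went from near the limit to clear expression in each AE9a-Ddit4-/- library, with a log2 change of 5.91 (SE 1.10, edgeR adjusted p = 0.00701). Ebf1 (chr11:44617317-45008091, plus strand), which acts with Pax5, was at 0.443, 0.177 and 0 CPM against 4.37, 1.91 and 3.49 CPM. Its log2 change was 3.97 (SE 1.13, adjusted p = 0.0338). The call of Ebf1 was lost when AE9a-Ddit4+/+ library 2 was left out (adjusted p = 0.0723), as it was on leaving out library 1, 2 or 3 of AE9a-Ddit4-/- (0.0961, 0.0519 and 0.0765), within a range of 0.000465 to 0.0961 over 12 alternatives.

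Ikzf3 (chr11:98464902-98546031, minus strand), the lymphoid member of the Ikaros family, was at 0.0950, 0.236 and 0.124 CPM in AE9a-Ddit4+/+ libraries and at 6.87, 1.73 and 6.96 CPM in AE9a-Ddit4-/- libraries. Library 2 was the lowest of the AE9a-Ddit4-/- group, still above all AE9a-Ddit4+/+ libraries, and the log2 change was 5.08 (SE 0.749, adjusted p = 0.00302). Pou2f2 (chr7:25087344-25179726, minus strand), which encodes OCT2, was at 3.32, 4.77 and 2.14 CPM against 13.5, 14.6 and 37.4 CPM. Its change was 2.68 on the log2 scale (SE 0.524, adjusted p = 0.00850). Pou2af1 (chr9:51213708-51240080, plus strand), the coactivator that works with OCT2, was at 0.190, 0.472 and 0 CPM against 5.48, 5.48 and 8.17 CPM. It was steady among the AE9a-Ddit4-/- libraries, with a log2 change of 4.84 (SE 1.11, adjusted p = 0.0153). Without AE9a-Ddit4+/+ library 1 its adjusted p was 0.0548, within a range of 1.32e-06 to 0.0597 over 12 alternatives. Spib (chr7:44525993-44532071, minus strand), an Ets factor of B cells and plasmacytoid dendritic cells, was at 0.475, 0.236 and 0.186 CPM against 3.36, 2.11 and 4.79 CPM. Here too the groups were apart, with a log2 change of 3.51 (SE 0.591, adjusted p = 0.00468).

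Ikzf1 (chr11:11685003-11772926, plus strand), the founding Ikaros factor of lymphoid development that is used in many blood cells, moved opposite to Ikzf3. It was at 107, 144 and 104 CPM in AE9a-Ddit4+/+ and at 51.6, 43.7 and 63.7 CPM in AE9a-Ddit4-/- libraries. The groups did not overlap, and the level fell by 1.16 on the log2 scale (SE 0.225, edgeR adjusted p = 0.00810). Bcl11a (chr11:24078056-24174123, plus strand), a zinc finger factor needed for early B cells, was at 62.5, 76.4 and 96.9 CPM against 39.3, 27.7 and 45.3 CPM. It fell by 1.07 on the log2 scale (SE 0.261, adjusted p = 0.0196). The call was lost when library 3 of AE9a-Ddit4+/+ was left out (adjusted p = 0.0693) or library 1 or 2 of AE9a-Ddit4-/- (0.0546 and 0.0551), within a range of 0.00196 to 0.0693 over 13 alternatives.

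Tcf3, the E protein that starts the B cell program, was at 174, 131 and 156 CPM in AE9a-Ddit4+/+ and at 90.9, 115 and 111 CPM in AE9a-Ddit4-/- libraries. The AE9a-Ddit4-/- libraries were all below the others, but the log2 change of -0.54 (SE 0.191) did not pass the threshold (adjusted p = 0.0666). It did without AE9a-Ddit4+/+ library 2 (adjusted p = 0.0461) and with library totals alone in place of scaling factors (adjusted p = 0.0357), within a range of 0.0357 to 0.184 over 13 alternatives. Bach2, a repressor that holds B cells back from the plasma cell state, was at 0.443, 0.884 and 0.217 CPM against 7.39, 1.51 and 1.29 CPM. Library 1 alone stood high among the AE9a-Ddit4-/- libraries, and the log2 change of 2.72 (SE 0.877) did not pass (adjusted p = 0.0522). It passed when library 2 of AE9a-Ddit4+/+ (adjusted p = 0.0458) or library 3 of AE9a-Ddit4-/- (0.0499) was left out. Without AE9a-Ddit4-/- library 1 the log2 change was 1.45 (adjusted p = 0.203), and the range was 0.00439 to 0.203 over 13 alternatives. Foxp1, a forkhead factor of early B cells and of many other tissues, was at 34.4, 30.6 and 28.4 CPM against 48.1, 36.4 and 31.6 CPM. These values overlapped (log2 change 0.31, SE 0.228, adjusted p = 0.334).

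**Figure D2:**
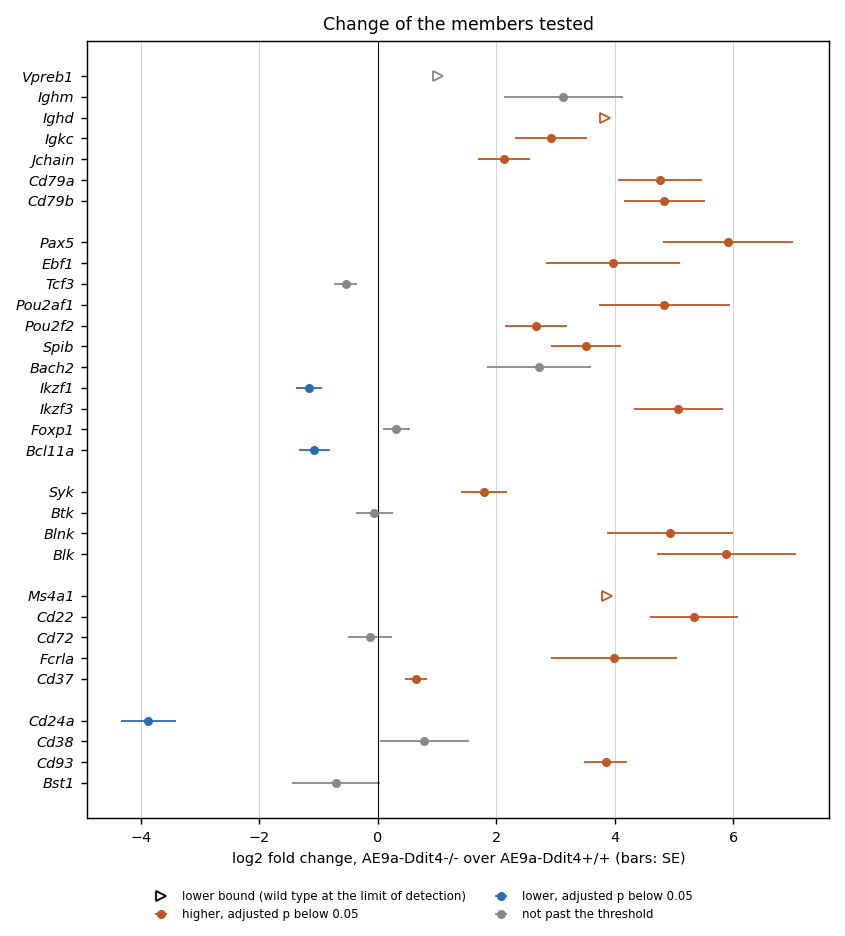
Log2 change, AE9a-Ddit4-/- over AE9a-Ddit4+/+ (x axis), of the 31 members tested, with bars for the SE, color for the call, and open triangles for lower bounds where all 3 AE9a-Ddit4+/+ libraries were at or under the limit of detection. The calls above 0 reach 5.91 for Pax5, and the calls below 0 are Cd24a at -3.87, Ikzf1 at -1.16 and Bcl11a at -1.07.

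Of 4 genes for kinases and adaptors that carry the signal of the B cell receptor, 3 were higher and Btk did not pass the threshold. Syk (chr13:52583173-52648792, plus strand), the kinase that binds the phosphorylated CD79 chains and also works in myeloid cells, was at 60.8, 128 and 42.6 CPM in AE9a-Ddit4+/+ and at 285, 244 and 273 CPM in AE9a-Ddit4-/- libraries. It was at a like level in all 3 AE9a-Ddit4-/- libraries, each above the highest AE9a-Ddit4+/+ library, and the log2 change was 1.80 (SE 0.392, edgeR adjusted p = 0.0127). Btk, a kinase downstream of Syk that myeloid cells express as well, was at 99.2, 57.3 and 113 CPM against 61.7, 112 and 85.6 CPM. The groups overlapped fully, with a log2 change of -0.06 (SE 0.317, adjusted p = 0.909).

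Blnk (chr19:40928927-40994535, minus strand), the adaptor that joins Syk to its B cell targets, was at 0.332, 0.339 and 0 CPM in AE9a-Ddit4+/+ libraries and at 7.47, 4.91 and 8.35 CPM in AE9a-Ddit4-/- libraries. Each AE9a-Ddit4-/- value lay far above the AE9a-Ddit4+/+ values, with a log2 change of 4.94 (SE 1.07, adjusted p = 0.0124). Blk (chr14:63372836-63417037, minus strand), a Src family kinase found mainly in B cells, was at 0, 0.0884 and 0.279 CPM against 7.93, 2.57 and 11.5 CPM. Blk was lowest in AE9a-Ddit4-/- library 2 and still above all AE9a-Ddit4+/+ libraries, and its log2 change was 5.88 (SE 1.17, adjusted p = 0.00912). Per kb of exon, the AE9a-Ddit4-/- mean levels were 28.5 CPM for Syk and 27.4 CPM for Btk, but 1.15 CPM for Blnk and 2.72 CPM for Blk.

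Of 7 surface receptors of B cells, 5 were tested, and 4 were higher and 0 lower. Ms4a1 (chr19:11249675-11266241, minus strand), which encodes CD20, was at 0 counts in the 3 AE9a-Ddit4+/+ libraries and at 2.51, 1.04 and 4.54 CPM in AE9a-Ddit4-/- libraries. This is at least 14.6-fold higher than the limit of detection, taken as 12 counts in each library (edgeR adjusted p = 0.00356). Cd22 (chr7:30865402-30880342, minus strand), a sialic acid binding lectin that dampens the B cell receptor, was at 0.253, 0.486 and 0.0928 CPM against 11.97, 5.53 and 16.5 CPM. Its groups were far apart, with a log2 change of 5.34 (SE 0.747, adjusted p = 0.00248). Fcrla (chr1:170917576-170927583, minus strand), an Fc receptor-like protein inside B cells, was at 0.142, 0.250 and 0 CPM against 1.38, 1.78 and 3.20 CPM, a log2 change of 3.99 (SE 1.06, adjusted p = 0.0272). Its call was lost when library 1 of AE9a-Ddit4+/+ was left out (adjusted p = 0.0786), and likewise for library 1, 2 or 3 of AE9a-Ddit4-/- (0.0559, 0.0532 and 0.0806), within a range of 0.000237 to 0.0999 over 12 alternatives.

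Cd37 (chr7:45233632-45239115, minus strand), a tetraspanin of B cells and other white blood cells, was at 55.4, 74.5 and 67.0 CPM in AE9a-Ddit4+/+ and at 107, 93.1 and 107 CPM in AE9a-Ddit4-/- libraries. The groups did not overlap, but the change was small (log2 change 0.64, SE 0.187, adjusted p = 0.0365). That call was lost on leaving out library 1 or 3 of AE9a-Ddit4+/+ (adjusted p = 0.111 and 0.101) or library 1, 2 or 3 of AE9a-Ddit4-/- (0.0876, 0.0759 and 0.120). It was also lost with library totals alone (0.0708) and with no filter on low counts (0.0576), within a range of 0.00687 to 0.120 over 13 alternatives. Cd72, a coreceptor on B cells and some myeloid cells, was at 10.9, 6.63 and 8.26 CPM against 9.99, 5.05 and 8.54 CPM. These overlapped (log2 change -0.13, SE 0.375, adjusted p = 0.820). Exons of Cd37 overlap those of Tead2 (up to 193 counts), and exons of Cd72 overlap those of Tesk1 (up to 1756 counts), both on the other strand. Cr2, the complement receptor CD21, had 71, 7 and 104 counts in AE9a-Ddit4-/- libraries and at most 5 in AE9a-Ddit4+/+ libraries, and Fcer2a, the low affinity IgE receptor CD23, had 4, 8 and 43 against at most 9. Both were too low to be tested, and for both the counts over the limit came from AE9a-Ddit4-/- libraries other than library 2.

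The surface proteins of early lymphoid cells that are shared with other lineages gave the largest fall and the smallest adjusted p among the 39 genes. Cd24a (chr10:43578284-43584265, plus strand), a small anchored glycoprotein of immature B cells, granulocytes and many other cells, was at 848, 848 and 892 CPM in AE9a-Ddit4+/+ and at 73.2, 23.4 and 79.7 CPM in AE9a-Ddit4-/- libraries. AE9a-Ddit4+/+ libraries were nearly alike and all far above the AE9a-Ddit4-/- libraries, among which library 2 was lowest. The level fell by 3.87 on the log2 scale (SE 0.461, edgeR adjusted p = 0.00137). Cd93 (chr2:148436640-148443563, minus strand), the AA4.1 antigen of early B cells and stem cells that monocytes and endothelium carry too, was at 24.9, 23.5 and 10.7 CPM against 327, 282 and 243 CPM. It rose in each AE9a-Ddit4-/- library, with a log2 change of 3.85 (SE 0.361, adjusted p = 0.000620). Cd24a was the most abundant of the 39 genes per kb of exon in AE9a-Ddit4+/+ (334 CPM, against 22.8 CPM in AE9a-Ddit4-/-), and Igkc was in AE9a-Ddit4-/- (611 CPM, against 80.4 CPM in AE9a-Ddit4+/+).

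Cd38 and Bst1, neighboring genes for related enzymes that cleave NAD, did not pass the threshold. Cd38 was at 8.37, 21.4 and 4.91 CPM in AE9a-Ddit4+/+ and at 25.7, 4.54 and 29.6 CPM in AE9a-Ddit4-/- libraries (log2 change 0.79, SE 0.755, adjusted p = 0.471). Bst1 was at 9.80, 14.4 and 9.67 CPM against 7.53, 1.02 and 12.2 CPM (log2 change -0.71, SE 0.744, adjusted p = 0.511). For both genes AE9a-Ddit4-/- library 2 was the lowest of all 6 libraries, and the groups overlapped. Exons of Bst1 overlap those of Fbxl5 on the other strand, which had up to 7932 counts.

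Within the AE9a-Ddit4-/- group, Ighm, Igkc, Igha and the sums of the Ighv, Igkv and Ighg genes were highest in library 2, while most other members were not. Of the single Ighg genes, Ighg1 (27.7, 86.9 and 104 CPM) and Ighg2c (78.8, 109 and 120 CPM) were highest in library 3. Of the 19 members called higher, 14 were highest in library 3, 12 were lowest in library 2 and 1, Igkc, was highest in library 2. Ms4a1 was at 0.385 times its group mean in library 2 and at 1.69 times in library 3, and Pax5 at 0.487 and 1.56 times. Ighd, although an immunoglobulin gene, went with these, at 0.370 times in library 2 and 2.09 times in library 3. Ighm was at 1.73 times its group mean in library 2 and at 0.653 times in library 3, and the Ighv genes together at 1.62 and 0.791 times. The ratio of Igkc to Cd79a in CPM was 15.1, 58.0 and 14.2 in AE9a-Ddit4-/- libraries 1, 2 and 3. In AE9a-Ddit4+/+ libraries this ratio was 289, 38.4 and 76.4, highest in library 1, where Igkc was also highest (73.3 CPM). Cd79a was near the limit in libraries 1 and 3 (0.253 and 0.232 CPM). Xist was also highest in library 3 and lowest in library 2 (63.2, 20.3 and 129 CPM). This was the order of 9 of the 19 members called higher, and a link was not tested. With 3 libraries, these orders are a description.

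**Figure D3:**
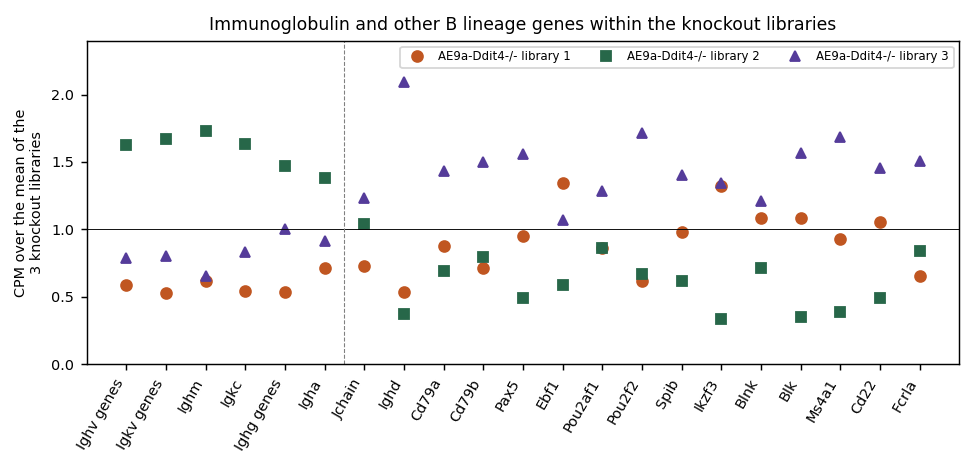
Level of immunoglobulin genes and of B lineage members called higher in the 3 AE9a-Ddit4-/- libraries, as CPM over the mean of the 3 libraries (y axis), with the dashed line between 6 immunoglobulin items and the other genes, Ighd and Jchain among the latter (Syk, Cd37 and Cd93, which other cells share, are not drawn). Library 2 is highest for the 6 items at the left and lowest for Ms4a1 (0.385), Blk (0.351) and Ikzf3 (0.333).

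Other genes of the B lineage and of early lymphoid cells were read from lists beside the 39 genes. The counts below stand beside 19.4% higher and 10.7% lower over all genes tested. Genes that are off in AE9a-Ddit4+/+ enter the test through AE9a-Ddit4-/- here too, so the counts describe the lists. Of 20 other B lineage genes, all tested, 17 were higher and 0 lower (median log2 change 3.19). Bank1, a B cell scaffold protein, changed by 5.91 on the log2 scale (SE 1.04, edgeR adjusted p = 0.00568), and Fcmr, the receptor for IgM, was at least 18.9-fold higher (adjusted p = 0.0184). Of 20 early lymphoid progenitor genes, all tested, 14 were higher and 0 lower (median 1.88). By fitted change the genes to name were Erg (5.84, SE 0.306, adjusted p = 0.000129) and Sox4 (5.24, SE 0.627, adjusted p = 0.00139), factors that stem cells and blasts express as well, and Lef1, a factor of lymphoid precursors and T cells, at least 12.2-fold higher (adjusted p = 0.00985). As Lef1 was undetectable in AE9a-Ddit4+/+, its rank rests on the fit, and Il7r (4.76, SE 1.13, adjusted p = 0.0179) and Ccr7 (4.68, SE 0.475, adjusted p = 0.000750), a cytokine and a chemokine receptor of lymphoid cells, had larger measured changes than that bound. Of 23 genes of B cell receptor signal transduction, all tested, 9 were higher and 1 lower (median 0.49), with Rasgrp1 (4.97, SE 1.11, adjusted p = 0.0140) and Plcg2 (2.92, SE 0.382, adjusted p = 0.00193) among those higher and Grb2 lower (-0.93, SE 0.181, adjusted p = 0.00790). Rasgrp1 serves T cells too.

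Among markers of other cell types, those of T and NK cells were mostly higher, and those of plasmacytoid dendritic cells were higher for a minority. The list of myeloid blast markers, which moved in both directions, also holds Ly6g and S100a8 of mature granulocytes and Ptprc of white blood cells. Over all genes tested, 19.4% were higher and 10.7% were lower. Of 21 T and NK cell markers, 20 were tested and 17 were higher and 0 lower, with a median log2 change of 4.83 (4.36 with undetectable genes at their bound). In all 3 AE9a-Ddit4+/+ libraries 10 of these 21 were at or under the limit of detection, as were 4 of 12 plasmacytoid dendritic cell markers. Such genes enter the test through their level in AE9a-Ddit4-/-, so the counts and medians of both lists describe the genes and support no comparison. The summed level of the T and NK cell markers was 14.9 to 87.3 CPM in AE9a-Ddit4+/+ and 144 to 221 CPM in AE9a-Ddit4-/- libraries. Trac, Cd8b1, Klrb1c and Ncr1 were at 0 in the 3 AE9a-Ddit4+/+ libraries, and Klrb1c, Trac and Cd8b1 were at least 28.5-, 27.9- and 15.9-fold higher in AE9a-Ddit4-/- (adjusted p = 0.00189, 0.00148 and 0.00445). The bounds were larger for Prf1 and Zap70, at least 165.5- and 78.1-fold (adjusted p = 0.000609 and 0.00105), both under the limit in each AE9a-Ddit4+/+ library. Of the 17, 15 were lowest in AE9a-Ddit4-/- library 2. Of 12 plasmacytoid dendritic cell markers, 10 were tested, 4 were higher and 0 lower (median 1.70), and the sum was 74.9 to 155 CPM against 187 to 327 CPM. Pacsin1 and Cd300c were at least 58.8- and 5.21-fold higher (adjusted p = 0.00386 and 0.0115) and Tcf4 changed by 3.85 (SE 0.557, adjusted p = 0.00281), while Siglech, the defining receptor of these cells, did not pass (log2 change -0.73, SE 1.46, adjusted p = 0.736) and Klk1 was at 0 in AE9a-Ddit4+/+. Of 15 genes on the myeloid blast list, all tested, 3 were higher and 3 lower (median -0.10), and the share higher was near that over all genes. Their sum was 1755 to 3899 CPM against 2240 to 3313 CPM. Kit (4.06, SE 0.365, adjusted p = 0.000550), Ptprc (2.43, SE 0.391, adjusted p = 0.00416) and Csf3r (1.98, SE 0.292, adjusted p = 0.00297) rose, and Ly6g (-3.17, SE 0.994, adjusted p = 0.0476), Elane (-1.82, SE 0.547, adjusted p = 0.0413) and S100a8 (-1.52, SE 0.465, adjusted p = 0.0442) fell. The part of cells of other types in the changes of the 39 genes was not tested.

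**Figure D4:**
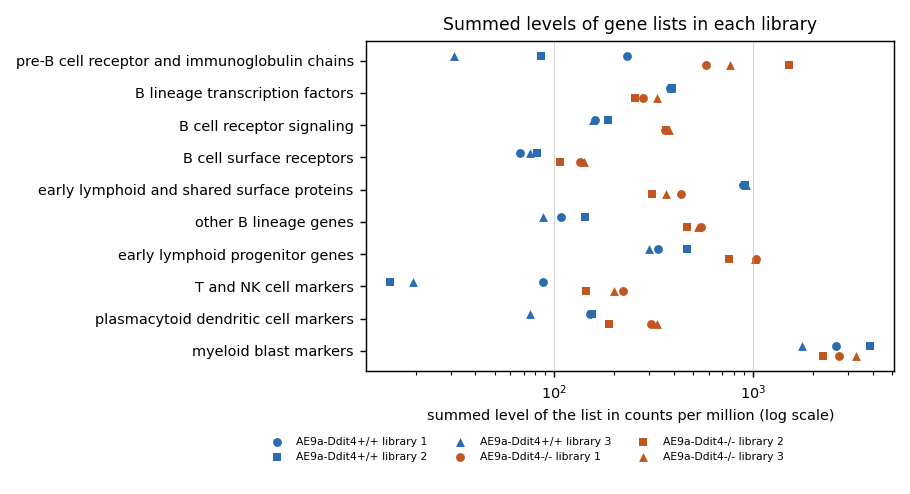
Summed level of each gene list in CPM (x axis, log scale) in the 6 libraries, with color for genotype and shape for library number; the first 5 lists divide the members apart from the recombination enzymes. The sums of the T and NK cell markers and of the immunoglobulin chains are higher in each AE9a-Ddit4-/- library (for the latter 31.4 to 231 CPM in AE9a-Ddit4+/+, 577 to 1524 CPM in AE9a-Ddit4-/-), while the sums of the myeloid blast markers overlap between the groups.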

How the data were processed

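RNA of 3 AE9a-Ddit4+/+ and 3 AE9a-Ddit4-/- libraries had been sequenced by the authors in paired reads of 150 bp. Transcripts were selected by rRNA depletion with a directional kit per the methods but with an mRNA kit per the labels, which is unresolved. The authors deposited 1 table of whole-number counts per gene, not normalized. The submitters' processing notes name the builds GRCm38 and mm10, while aligner, counter, annotation and use of strand are not given in the sources used here, and reads of genes that overlap on opposite strands cannot be told apart. In each library multiples of 4 were 1.405 to 1.616 times as frequent as other even values among low counts, so a fragment may have been counted about 4 times, and the limit of 12 counts stands for 3 fragments.

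Of 55421 identifiers, 55240 were in GENCODE release M21, which gave positions and exon lengths, and 27 symbols that had been turned into dates were restored. Counts were filtered with filterByExpr, scaled by TMM (factors 0.921 to 1.05) and tested with the quasi-likelihood test of edgeR 4.0.16 in R 4.3.3, with genotype as the only term and Benjamini-Hochberg adjustment over 18375 genes. SE is the absolute log2 fold change over the square root of F. Where the 3 AE9a-Ddit4+/+ libraries were at or under 12 counts each, the mean CPM of AE9a-Ddit4-/- was divided by the mean limit in place of a fitted fold.

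The members, lists and tests were chosen with earlier results of these data known. All 39 members are accounted for, with the value in every library for those past the threshold or with a mean of at least 10 CPM in a group, and from each other list the 3 largest fitted log2 changes past the threshold per direction are named, undetectable genes included, together with Ddit4, Xist and Ddx3y. Some genes that this rule would name are not reported here. Bach2, Cd72, Vpreb1, Siglech, Klk1, Ncr1, Il7r, Ccr7, Prf1, Zap70, the counts of untested members and the other immunoglobulin genes were added after their values were seen. Alternatives were other scaling, filters, threshold, counts divided by 4, DESeq2 1.42.0, a block for replicate number and leaving out each library.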

Additional observations from a re-analysis of the deposited data

How the results depend on the processing

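Over 14 alternatives to the 31 tests of members, 366 of 422 single values kept direction and side of the threshold, 12 passed only under the alternative, 38 did so no longer and 6 turned direction. Of the 22 calls, 16 held in every fit that left out 1 library and 11 in every alternative that tested them. Members called higher numbered 11 where each library needed at least 10 counts, which left 20 members to test, and 10 at an adjusted p below 0.01, and 16 to 19 when 1 library was left out. The median log2 change was 1.36 under the same minimum, and 2.55 to 3.53 when 1 library was left out. Members called lower numbered 2 to 4 throughout. Btk, near 0, turned to 0.0069 under that minimum and ran from -0.33 to 0.14 when 1 library was left out, and Cd72 from -0.33 to 0.076, with the cause not tested. Deviations from the group means correlated at -0.165, -0.194 and -0.049 between same-numbered libraries, and at -0.028 to 0.179 between libraries of unlike number. These values gave no sign of pairing by replicate number, but they cannot show how the libraries were handled. With the replicate block, 12 members were called higher and 3 lower, and 2964 genes of all against 5535 without it. The calls lost with the block were those of Pou2f2, Cd37, Pou2af1, Fcrla, Ebf1, Blnk and Ighd. Depth limits the members near 12 counts.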
